A study of Mus musculus with 12 samples.

Results

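The peaks described here are those that an antibody to NLRP3 gave in chromatin of CD4 T cells from wild-type mice and from NLRP3 knockout mice. Both lists were cleaned in the same way. Peaks were kept on chromosomes 1 to 19, X and Y, and a peak was dropped if it shared at least 1 bp with a peak of the nonspecific immunoglobulin (Ig) or of the input library of the same genotype. What remained is called control-free. It amounts to 392 of 611 deposited peaks in wild-type cells and 483 of 661 in knockout cells, or 875 peaks among 99986 in the 12 lists of the series. A control-free peak was classed as shared if it overlapped a control-free peak of the other genotype by at least 1 bp, and otherwise as wild-type only or knockout only.

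NLRP3 is a cytosolic sensor protein best known for assembling the inflammasome, the complex that activates caspase-1 in myeloid cells. In T helper 2 (Th2) cells, the CD4 T cells that make IL-4 and related cytokines, it has also been described in the nucleus, as a partner of the transcription factor IRF4. In chromatin immunoprecipitation and sequencing (ChIP-seq) an antibody pulls down crosslinked DNA, and sites where reads pile up are reported as peaks. Cells without the target protein show what the antibody and the procedure recover in its absence, so peaks of the knockout library measure the background of this antibody.

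The cells were naive CD4 T cells from spleen and lymph nodes of C57/Bl6j mice aged 7 weeks, either wild-type or NLRP3 KO. Cells of both genotypes were activated on plates coated with antibodies to CD3 and CD28, and were given IL-4 at 10 ng/ml with an antibody that blocks interferon gamma, for a few hours. Each genotype has 1 library for each of 6 preparations, namely antibodies to NLRP3, STAT6, IRF4 and BATF, the Ig, and input, from 300000 cells. The number of mice behind a library is not given in the labels. With 1 library on each side there is no replicate error, so every difference below is a description. Intervals are exact Clopper-Pearson 95% intervals of a share or exact Poisson 95% intervals of a count, and for a median the matching interval from order statistics. They cover the counting of peaks only. The lists hold positions and scores without read counts, so depth is unknown, and neither the cell type nor the loss of NLRP3 could be checked from them.

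Few control-free NLRP3 antibody peaks lay at the same place in both genotypes. The classes held 385 wild-type only peaks, 476 knockout only peaks and 7 shared regions. The shared regions were 1.79% (0.721 to 3.64) of the wild-type and 1.45% (0.585 to 2.96) of the knockout peaks. The Ig lists, cleaned of NLRP3 and input peaks in the mirrored way, shared 2 regions, which were 0.408% of 490 wild-type and 0.772% of 259 knockout Ig peaks. The IRF4 lists, cleaned like the NLRP3 lists, shared 21 regions, or 3.43% (2.14 to 5.20) of 612 wild-type peaks. The NLRP3 share thus lay between those of Ig and IRF4, with intervals that overlapped both. For STAT6 and BATF, whose lists differ greatly in length between genotypes, the shares were 0.488% and 8.55% of wild-type and 8.28% and 0.0864% of knockout peaks. Without removal of control peaks 79 wild-type NLRP3 peaks were shared in place of 7, and with unplaced sequences 12. Distance did not fill the gap. Within 10 kb of a knockout member lay 13 of the 392 wild-type peaks, and within 100 kb lay 26.

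The cleaning removed more of the wild-type list, and what it removed was wide and highly scored. On the chromosomes kept, 105 of 497 wild-type peaks (21.1%) and 74 of 557 knockout peaks (13.3%) met a control peak. Ig accounted for 101 of the wild-type and 73 of the knockout removals. Input accounted for 23 and 14, although the knockout input list holds 30165 peaks and the wild-type one 454. The median score of the removed peaks was 161 for wild-type and 138 for knockout. Some peaks of 1 genotype met a peak of the other NLRP3 list that had been removed in this way. This was so for 1 wild-type only and 11 knockout only peaks, and 10 of the latter lay at a wild-type Ig peak. Without them the classes would hold 384 and 465 peaks.

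The 7 shared regions differed in strength and in the other antibodies that met them. The score of a peak is the authors' MACS score, which MACS usually writes as 10 times the negative log10 of a p. The lists do not state this, and a score cannot be compared between lists as an amount of binding, so ranks within a list are also given, as the percentile among all peaks of that list. The region ranked highest in wild-type cells was chrX:37544313-37544387, 75 bp wide. Its wild-type score was 138 (percentile 83.4) and its knockout score 79.7 (percentile 71.1), and the centres of both peaks lay 1 bp apart. STAT6 of wild-type cells and IRF4 and BATF of knockout cells also had peaks there. The region chr3:152364577-152364740 had a wild-type score of 90.6 (percentile 72.1) and a knockout score of 52.6 (percentile 8.02). It carried STAT6 and IRF4 peaks in both genotypes.

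The region chr13:74667296-74667616 met more factors than any other shared region. Wild-type and knockout scores were 74.4 and 68.7 for the NLRP3 antibody, 189.6 and 153 for IRF4 and 72.8 and 69.3 for BATF. STAT6 had no wild-type peak and a knockout peak of 186. In contrast, chr18:3004680-3005071 met none of the other 10 lists, with wild-type and knockout scores of 65.9 and 57.9. The region chr1:48938325-48938424 scored 86.0 and 62.4 and met wild-type STAT6 alone. The region chr11:34495340-34495551 scored 69.1 and 56.3 and met IRF4 and BATF of knockout cells. The region chr6:29698835-29698938 was the only one of the 7 with the higher rank in knockout cells. Its wild-type score was 51.6 (percentile 6.79) and its knockout score 98.3 (percentile 81.8), with wild-type IRF4 and BATF peaks. In the 7 pairs the overlap covered at least 81.6% of the shorter peak. Just outside the class lay 3 wild-type peaks within 1000 bp of a knockout member, at gaps of 108, 455 and 592 bp. The knockout members at 108 and 592 bp belong to the shared regions on chromosomes 13 and 18. The one at 455 bp, chr4:118220430-118220732, met another wild-type NLRP3 peak, of 169.5, that had been removed.

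Most control-free peaks of either genotype had low scores. The median score was 58.8 (quartiles 54.5 and 70.65) for wild-type and 60.9 (56.2 and 73.5) for knockout. The control-free peaks lay in the lower part of their own lists, with a median percentile of 36.3 for wild-type and 44.3 for knockout. Scores between 60 and 75 were held by 27.6% of wild-type and 37.7% of knockout peaks. The order varied at the top. At a minimum score of 70 there were 102 wild-type and 129 knockout peaks, at 80 there were 61 and 50, and at 90 there were 34 and 39. A score of at least 100 was reached by 22 wild-type and 3 knockout peaks, and 24 further knockout peaks sat just under it, at 99.18. The plot of score against width shows this top group, and also the bands into which the remaining peaks fall.

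**Figure D1:**
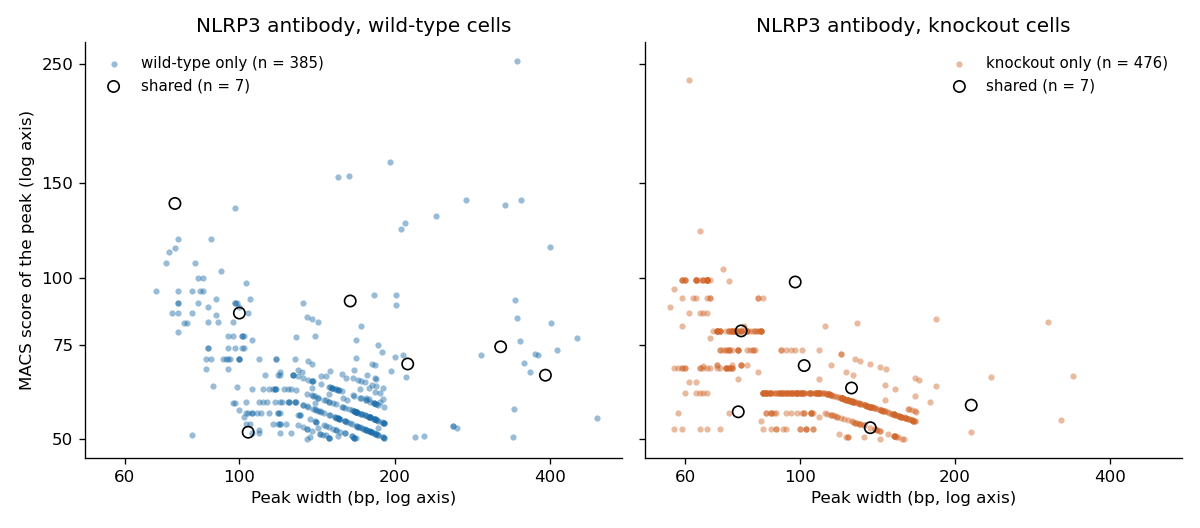
Score of each control-free NLRP3 antibody peak (vertical, MACS score, log axis) against its width (horizontal, bp, log axis), for wild-type cells on the left and knockout cells on the right. Filled points are peaks of 1 genotype only and open circles are the 7 shared regions. Wild-type peaks extend to scores over 100 and widths over 200 bp, while many knockout peaks lie on bands of repeated scores below 100, with 3 peaks above it.

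The knockout scores were repeated far more often than the wild-type scores, a pattern looked into after the values were seen. The 483 knockout peaks had 131 different scores and the 392 wild-type peaks had 238. Scores held by at least 5 peaks covered 284 knockout peaks (58.8%) and 97 wild-type peaks (24.7%). The score 60.94 alone was carried by 88 knockout peaks, or 18.2%, and 79.67 by 49. The commonest wild-type score, 70.65, was carried by 13 peaks. Among the 24 knockout peaks with a score of 99.18 the widths ran from 59 to 67 bp, while among the 88 with 60.94 they ran from 60 to 112 bp.

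Many peaks of each NLRP3 list had an exact score value that also occurred in other lists. Of the knockout peaks 86.5% (83.2 to 89.5) had a score that also occurs in the wild-type BATF list and 81.2% (77.4 to 84.6) one that occurs in the knockout Ig list. For the wild-type IRF4 list the share was 12.2% (9.43 to 15.5). Wild-type peaks had scores that occurred in the wild-type IRF4 list for 65.3% (60.4 to 70.01), in wild-type BATF for 14.03% (10.7 to 17.9) and in knockout Ig for 7.65% (5.22 to 10.7). The wild-type STAT6 list differed less between the genotypes, at 47.4% (42.4 to 52.5) of wild-type and 40.8% (36.4 to 45.3) of knockout peaks. In knockout input the shares were 4.34% of wild-type and 48.7% of knockout peaks, and in knockout BATF 0.765% and 9.94%. In knockout IRF4 they were 44.4% and 14.3%. The lists hold unequal numbers of different scores, from 29 in knockout input to 513 in knockout IRF4, and no share expected from this was computed. These shares compare numbers and not places in the genome. A score enters once for each peak that carries it, and the intervals treat tied peaks as separate. The score 60.94, carried by 88 knockout peaks, occurs in both the wild-type BATF and the knockout Ig list. The part that read depth or the caller's control has in these shares was not tested.

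The 10 highest wild-type only peaks were all at IRF4 peaks of wild-type cells, but this did not hold further down the list. Counting all control-free wild-type peaks, shared ones included, IRF4 met 14 of the 22 that scored 100 or more. From 75 to under 100 it met 16 of 52. Of the 10 highest, 4 also had a STAT6 peak and 1 a BATF peak in wild-type cells. In knockout cells 7 of the 10 had a STAT6 peak and 5 an IRF4 peak. The first was chr18:40467668-40468012, 345 bp wide, with a score of 253 (percentile 93.0). The other peaks there were wild-type IRF4 (220.3) and knockout IRF4 (166), STAT6 (135) and input (57.4). This region therefore met a control list, although not of its own genotype.

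The second, chr12:16754536-16754731, scored 164 and had a peak in 8 of the other 11 lists. The NLRP3 antibody scored 159 there in knockout cells, where the peak had been removed for an Ig peak of 98.55. This peak is thus wild-type only by the rule, while the antibody had a peak there in both genotypes. The region chr17:71312978-71313140 scored 155, with 168 for wild-type IRF4 and 67.6 for knockout STAT6. The region chr10:60836762-60836859, 98 bp wide, had the same wild-type score of 135 for NLRP3 and IRF4 and 123.5 for STAT6. The region chr2:5300182-5300390 had wild-type scores of 127 for NLRP3 and 133 for IRF4. These 2 were the only ones of the 10 without a peak in any knockout list.

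The highest knockout only peaks were narrow and mostly stood alone. The 10 highest were 60 to 71 bp wide, against 98 to 351 bp for the wild-type 10, and 3 of them met any other list. The first was chr9:23522189-23522249, which scored 234 (percentile 94.6). It met STAT6 at 228, IRF4 at 134 and BATF at 111 in wild-type cells and IRF4 at 152 in knockout cells, with no NLRP3 antibody peak in wild-type cells. The second, chr12:51709393-51709456, scored 123 and was in no other list. The third, chr9:38252689-38252759, scored 104.0 and met wild-type IRF4 at 62.0. The remaining 7 had the tied score of 99.18 and were placed by position among the 24 that carry it.

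Wild-type NLRP3 antibody peaks had the higher median width in all 4 score classes. The median width was 149 bp (143 to 155) for wild-type only and 101 bp (96 to 105) for knockout only peaks. For scores of 50 to under 60 the medians were 159.5 and 130 bp, for 60 to under 75 they were 139 and 94 bp, and for 75 to under 100 they were 100 and 70 bp. At 100 or more they were 126.5 and 64 bp, over 22 and 3 peaks. A score is not the same rank in both lists, so these classes do not match the peaks by rank. A width of at least 150 bp was found in 49.7% (44.7 to 54.8) of wild-type and 12.2% (9.43 to 15.5) of knockout peaks. Peaks under 80 bp wide numbered 53 of 182 and 78 of 97 knockout peaks in the classes from 60 and from 75, against 0 of 108 and 9 of 52 wild-type peaks. Across 483 knockout peaks width fell with score, with a Spearman rho of -0.70 and a Pearson r of -0.50. Across 392 wild-type peaks the measures differed in sign, with a rho of -0.29 and an r of 0.049. Peaks of 1 library share its depth and fragment lengths.

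**Figure D2:**
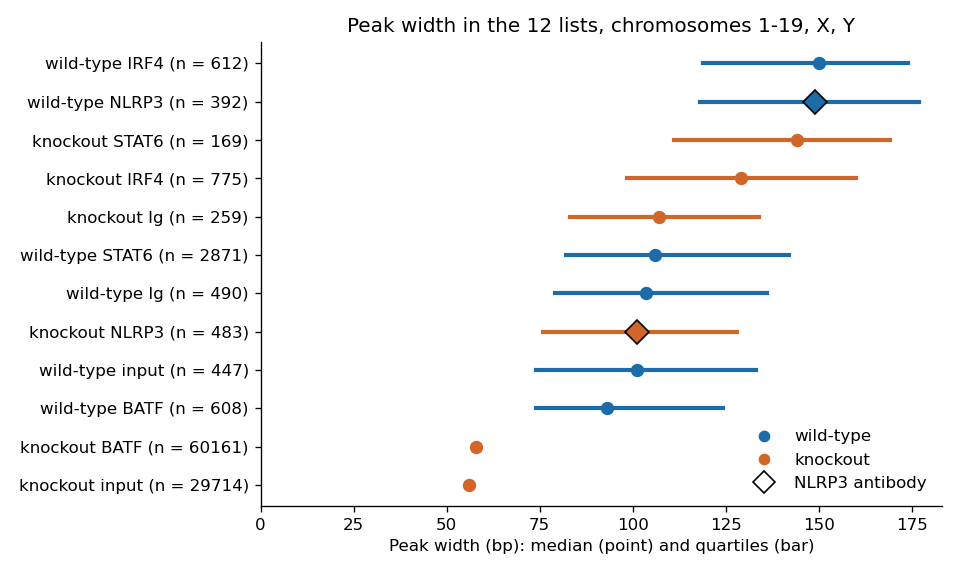
Median width in bp (points) and quartiles (bars) of the peaks kept in each of the 12 lists, sorted by median, with wild-type in blue, knockout in orange and the NLRP3 antibody as diamonds. Wild-type NLRP3 at 149 bp sits next to wild-type IRF4 at 150 bp, and knockout NLRP3 at 101 bp lies among control lists and factor lists of 93 to 107 bp.

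The median width of knockout NLRP3 peaks, 101 bp, lay among both control and factor lists. Wild-type input had 101 bp, wild-type Ig 103.5 bp and knockout Ig 107 bp, and among the factors wild-type STAT6 had 106 bp and wild-type BATF 93 bp. Knockout input stood apart at 56 bp and knockout BATF at 58 bp. Beside the 149 bp of wild-type NLRP3 lay wild-type IRF4 at 150 bp and knockout STAT6 at 144 bp. Width thus did not separate control from factor lists. The difference between genotypes did not have 1 direction over the antibodies. Wild-type minus knockout medians were 48 bp for NLRP3, 21 bp for IRF4 and 35 bp for BATF, but -38 bp for STAT6 and -3.5 bp for Ig. The median widths of the 12 lists are shown in the plot of width by list. Which property of the libraries goes with these widths was not tested.

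Few peaks of either NLRP3 list were wider than 200 bp, and the wild-type counts fell off more gradually. Wild-type peaks of 180 to 189 bp numbered 37 and those of 190 to 199 bp numbered 13. From 200 to 209 bp there were 6, and from 210 to 219 bp there were 3. Knockout peaks of 160 to 169 bp numbered 22 and those of 170 to 179 bp numbered 2. Beyond 200 bp lay 35 wild-type peaks (8.93%, 6.30 to 12.2) and 6 knockout peaks (1.24%, 0.457 to 2.68). Of the 35 wide wild-type peaks 11 had another wild-type member within 10 kb, and 17, or 48.6% (31.4 to 66.0), lay in a wild-type STAT6, IRF4 or BATF list. Peaks under 100 bp also met factors often, at 28.3% (16.8 to 42.3) of 53. Among wild-type peaks of 100 to under 150 bp that share was 8.33% (4.38 to 14.1), and from 150 to under 200 bp it was 10.0% (5.82 to 15.7). Of the 35 wide peaks 6 lay at a control peak of knockout cells, and of the 6 wide knockout peaks 5 lay at a control peak of wild-type cells and 5 at a factor peak of knockout cells. The widest wild-type only peak, chr16:3114707-3115200, was 494 bp wide. It scored 54.9, with wild-type IRF4 at 58.7, knockout STAT6 at 98.8 and knockout input at 67.9.

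Both sets of peaks were spread over all chromosomes. Taking the stretch between the first and the last peak of any list as the length of a chromosome, autosomes held 9.99 to 22.8 wild-type peaks per 100 Mb (median 14.9) and 9.87 to 26.2 knockout peaks (median 20.15). Knockout peaks were 1.23 times as many over the whole set. They were the more numerous on 12 autosomes, the less numerous on 5, and equal in number on chromosomes 3 and 18. The ratio was highest among autosomes on chromosome 11, with 14 wild-type peaks (7.65 to 23.5) and 31 knockout peaks (21.1 to 44.0). Chromosome 4 held 24 and 40 peaks, and chromosome 19 held 10 and 6. The intervals of the genotypes overlapped on all 21 chromosomes. Chromosome Y held 1 wild-type and 2 knockout peaks within the 1.33 Mb that its peaks span.

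**Figure D3:**
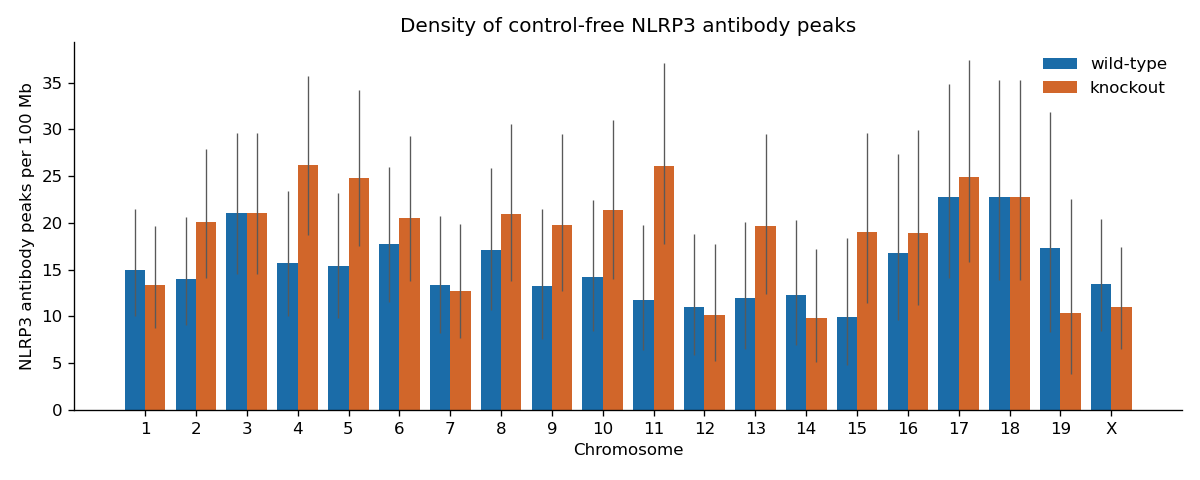
Control-free NLRP3 antibody peaks per 100 Mb (vertical) on chromosomes 1 to 19 and X (horizontal), for wild-type cells in blue and knockout cells in orange, with exact Poisson 95% intervals of the count. Chromosome Y is left out because its peaks span 1.33 Mb. The bars differ most on chromosome 11, with 14 wild-type and 31 knockout peaks, and the intervals overlap on every chromosome.

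Knockout peaks lay closer together than wild-type peaks. Spacing was measured from the centre of a peak to the nearest other centre of the same genotype. The median was 2.38 Mb (2.06 to 2.78) for wild-type and 1.49 Mb (1.18 to 1.70) for knockout. With the same number of highest-scored peaks on both sides the knockout median was 1.88 Mb, below the wild-type interval. Distances of 10 to 100 kb held 49 knockout peaks (10.1%, 7.60 to 13.2) and 9 wild-type peaks (2.30%, 1.06 to 4.32). Below 1 kb the order was the other way, with 12 wild-type and 4 knockout peaks. Within 100 kb of another member lay 31 wild-type peaks (7.93%, 5.45 to 11.1) and 82 knockout peaks (17.0%, 13.7 to 20.6). The same share was 16.7% in wild-type Ig, 13.9% in knockout Ig, 23.7% in wild-type input and 90.3% in knockout input. In the factor lists of wild-type cells it was 8.66% for IRF4, 32.8% for STAT6 and 23.7% for BATF. In those of knockout cells it was 8.39% for IRF4, 11.8% for STAT6 and 99.2% for BATF. This share thus did not separate control from factor lists. The median spacing ordered the lists differently, at 1.541 Mb in wild-type Ig, 1.536 Mb in wild-type input, 2.83 Mb in knockout Ig and 1.39 Mb in wild-type IRF4. Among these, wild-type NLRP3 lay nearest to knockout Ig and knockout NLRP3 nearest to wild-type input. Their lengths are unequal, with 259 peaks in knockout Ig, 447 in wild-type input, 490 in wild-type Ig and 612 in wild-type IRF4. The spacing of a list depends on its number of peaks, and these medians were not adjusted for it.

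**Figure D4:**
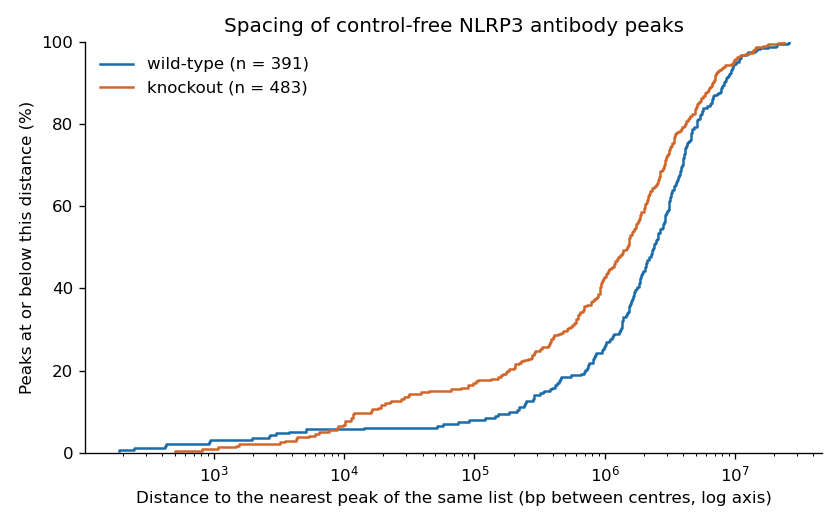
Cumulative share of control-free NLRP3 antibody peaks (vertical, %) by distance to the nearest peak of the same genotype (horizontal, bp between centres, log axis), for wild-type cells in blue and knockout cells in orange. The knockout curve runs above the wild-type curve between 10 kb and 1 Mb, with 82 of 483 knockout and 31 of 391 wild-type peaks within 100 kb, and below it under 1 kb.

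Groups of 3 or more neighbouring peaks were few. With neighbours within 10 kb, wild-type cells had 2 such groups and knockout cells 1. The wild-type group at chr10:7229747-7236601 held 3 peaks 339 to 452 bp wide with scores of 50.5 to 77.15, and met knockout STAT6 and BATF peaks. The one at chr17:3026956-3030821 held 3 peaks 137 to 350 bp wide, with scores of 50.6 to 90.9. It met wild-type IRF4 and knockout STAT6, IRF4 and input peaks. The knockout group at chr9:113169678-113180704 held 3 peaks 72 to 121 bp wide and met no other list. With neighbours within 100 kb the knockout groups of 3 numbered 6, and none of them met another list. Knockout peaks with the score 67.91 were the most clustered of the commonest scores, since 20 of 23 lay within 100 kb of another member. That score is carried by 3480 peaks of the knockout input list, 51 of the wild-type BATF list and 11 of the knockout Ig list, and by no wild-type NLRP3, IRF4 or Ig peak.

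IL-4 signals through STAT6, and Th2 cells also need IRF4, which binds DNA together with BATF, a member of the AP-1 family. Of the wild-type only peaks 46, or 11.9% (8.88 to 15.6), overlapped an IRF4 peak of wild-type cells. STAT6 peaks met 27 (7.01%, 4.67 to 10.04) and BATF peaks 10 (2.60%, 1.25 to 4.72). At least 1 of the 3 factors met 55, or 14.3% (10.9 to 18.2), against 3.06% of the wild-type Ig peaks cleaned in the mirrored way. Of the knockout only peaks 15 (3.15%) met IRF4, 12 (2.52%) BATF and 11 (2.31%) STAT6 of knockout cells. At least 1 met 22, or 4.62% (2.92 to 6.91), against 10.4% of the knockout Ig peaks. Both shares varied with the settings. With controls of either genotype removed the wild-type only share was 11.7% and the knockout only share 1.94%. With unplaced sequences they were 19.2% and 8.17%. With peaks within 1000 bp counted as overlapping they were 14.7% and 10.8%. The Ig shares were not recomputed under these settings.

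The share at factor peaks rose with the score in wild-type cells. It was 5.71% (2.99 to 9.77) of 210 wild-type peaks with scores of 50 to under 60 and 10.2% (5.20 to 17.5) of 108 from 60 to under 75. It was 38.5% (25.3 to 53.0) of 52 from 75 to under 100 and 77.3% (54.6 to 92.2) of 22 at 100 or more. In knockout cells the first 3 shares were 4.98% (2.41 to 8.96), 3.85% (1.56 to 7.76) and 8.25% (3.63 to 15.6), and 1 of the 3 highest peaks met a factor. Below a score of 75, where 318 of the 392 wild-type peaks lie, the counting intervals of both lists overlapped. From 75 to under 100 they did not. These intervals do not measure a difference between genotypes, which have 1 library each. A score class is also not the same rank in both lists, and Ig shares by score were not computed.

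**Figure D5:**
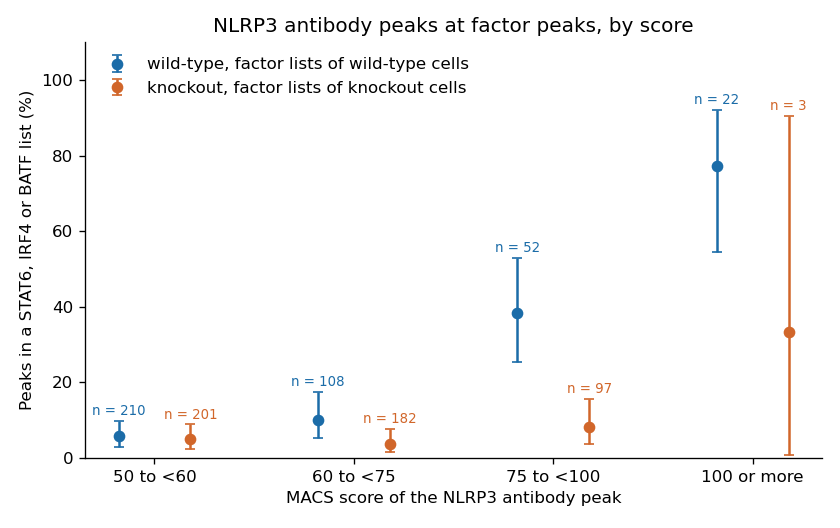
Share of control-free NLRP3 antibody peaks that overlap a STAT6, IRF4 or BATF peak of the same genotype (vertical, %) by score of the NLRP3 antibody peak (horizontal, 4 classes), with exact Clopper-Pearson 95% intervals and the number of peaks. Wild-type shares, in blue, rise from 5.71% to 77.3%, while knockout shares, in orange, stay between 3.85% and 8.25% in the first 3 classes, and the last knockout class holds 3 peaks.

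Most wild-type only peaks at factor sites were also factor sites in knockout cells. Of the 55 wild-type only peaks that met a wild-type factor peak 34, or 61.8%, met a STAT6, IRF4 or BATF peak of knockout cells as well. A further 20 met a factor peak of knockout cells alone, and 310 met none in either genotype. Of the 22 knockout only peaks at a knockout factor peak 17, or 77.3%, also met a wild-type one. The knockout factor lists hold 62295 peaks, of which 60926 are BATF, and knockout BATF met 17 wild-type only peaks. Of the 21 wild-type only peaks with a score of at least 100, 16 met a wild-type factor and 13 of these a knockout factor. The knockout STAT6 list, with 361 peaks, held 37 of the wild-type only peaks (9.61%, 6.86 to 13.0). The wild-type STAT6 list, with 3102 peaks, held 27. Of the 46 peaks at wild-type IRF4 sites 25 were in the knockout STAT6 list, and these were 67.6% of the 37 there. Control-free wild-type IRF4 peaks were found equally often in both STAT6 lists, at 5.72% (4.02 to 7.86) each.

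Wild-type only peaks met by at least 2 wild-type factors numbered 23, and 5 of them carried all 3. Among the 5 the region chr12:16754536-16754731 is described above. The region chr3:59849011-59849216 had wild-type scores of 124 for NLRP3, 114.5 for STAT6, 117 for IRF4 and 73.6 for BATF. Its knockout peaks were STAT6 (174), IRF4 (58.7) and Ig (63.8). The region chr6:132413719-132413808 had wild-type scores of 91.2 for NLRP3, 633 for BATF, 228 for IRF4 and 73.5 for STAT6. It kept STAT6, IRF4 and BATF peaks in knockout cells and also met knockout input at 57.4. The region chr18:7033700-7033784 scored 94.6 with NLRP3 and chr18:82390375-82390542 scored 76.5. The first had a knockout Ig peak of 91.8, and the second was free of all 4 control lists. The peak chr5:114623095-114623182, at a strong wild-type BATF site, scored 118 with NLRP3 and was free of all controls too.

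Knockout only peaks at factor sites were few. Those met by at least 2 knockout factors numbered 12, and 4 of them carried all 3. The region chr14:59277538-59277596 scored 99.2 with the NLRP3 antibody in knockout cells and had peaks in 8 of the other lists, among them wild-type NLRP3 at 94.6 and wild-type Ig at 79.3. The region chr15:74916638-74916958 scored 54.4 in knockout cells. The wild-type NLRP3 antibody scored 533 there and wild-type Ig 52.3, so its wild-type counterpart had been removed. The region chr8:73956985-73957053 scored 79.7 and met STAT6 at 101, IRF4 at 190 and BATF at 56.7 in knockout cells, with no Ig or input peak in either genotype. Over all knockout only peaks 448 of 476, or 94.1%, met none of the other 11 lists. The same was true of 307 of 385 wild-type only peaks, or 79.7%. Controls of the other genotype met 17 wild-type only peaks (4.42%, 2.59 to 6.98) and 13 knockout only peaks (2.73%, 1.46 to 4.62).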

How the data were processed

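The data are 12 deposited peak lists, 1 per library. Per the file headers, the authors ran MACS within Galaxy, and the score in column 5 is the authors' own value for each peak. No score in the NLRP3 lists was below 50.05 and none was above 3100. Reads were aligned with Bowtie2, per the submitters' processing notes. Which MACS version, threshold and control were used is not given in the sources used here. The notes name mm8, but peaks reach position 152397321 on chromosome 7, past its known end in that build, so the build is not settled. Coordinates are as deposited, counted from 1. Genes and sequences at the peaks were not analysed here.

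Overlaps of at least 1 bp were computed in Python 3.11.15 (numpy 2.4.6, pandas 2.3.3, scipy 1.17.1), and the member counts were checked with bedtools 2.31.1. The code was tested on simulated lists with planted overlaps. Figures were drawn with matplotlib 3.10.9. Percentiles rank a peak within its whole deposited list. Regions named were every shared region, the 10 highest-scored and 3 widest peaks of each genotype, groups of at least 3 peaks with neighbours within 10 kb, and peaks met by at least 2 factors of their genotype. Not every region so selected is printed. The rule, the classes and the alternatives (minimum score, overlap, controls, sequences, merging, list length) were chosen with earlier results of these data known. Exact score values and width classes were looked at after the values were seen. No test between genotypes was made, since each has 1 library.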

Additional observations from a re-analysis of the deposited data

How the results depend on the processing

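The 10 alternatives kept wild-type only peaks wider than knockout only peaks, wild-type spacing above knockout spacing, and the wild-type share at factor peaks above the knockout share. Spacing was measured over all members of a genotype, so the alternatives of overlap could not change it. At a minimum score of 100 the knockout spacing was the 1 distance between peaks on chromosome 9, so it gives no direction. The knockout width and factor share there rest on 3 peaks. Some alternatives left the wild-type only and knockout only classes almost unchanged. These held 385 and 476 peaks with 50% overlap, 382 and 473 with overlap within 1000 bp, and 389 and 477 with Ig alone as control. The knockout only class was the larger in 8 of 10. With a minimum score of 100 there were 22 wild-type only, 3 knockout only and 0 shared peaks, with median widths of 126.5 and 64 bp, percentiles of 81.2 and 88.7, spacings of 65.8 and 14.7 Mb, and factor shares of 77.3% and 33.3% in that order. Without removal of control peaks 79 wild-type peaks were shared, wild-type and knockout spacings were 1.72 and 1.12 Mb, and 20.6% of wild-type only peaks met a factor. With unplaced sequences included 12 peaks were shared and the factor shares were 19.2% (wild-type) and 8.17% (knockout). With controls of either genotype removed the wild-type and knockout factor shares were 11.7% and 1.94%. With peaks within 1000 bp counted as overlapping they were 14.7% and 10.8%. With equal numbers of peaks the knockout spacing was 1.88 Mb and the knockout only width 93.5 bp, and after merging of neighbours the knockout only median percentile was 44.1. No paired analysis was possible because the labels carry no replicate numbers and each group has 1 library. Depth is unknown, so no limit of detection can be given.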
